A study of Drosophila melanogaster with 6 samples.

Results

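Neuropeptides are short signalling peptides that neurons and gut endocrine cells cut out of longer precursor proteins and release onto G protein-coupled receptors. In flies they tune feeding, sleep, water balance, circadian output, aggression and mating, often from a small number of cells. The 10 genes described here encode neuropeptide F (NPF), short neuropeptide F (sNPF), pigment-dispersing factor (Pdf), tachykinin (Tk), the diuretic hormones Dh44 and Dh31, corazonin (Crz), allatostatins A and C (AstA and AstC) and the FMRFamide precursor (FMRFa). A gene was included through a probe set, the group of array probes for a transcript, that the platform annotation pairs with that gene alone. By this rule 8 of the 10 genes have a probe set, and each has 1, out of 13966 probe sets on the array other than controls. The other two, Tk and AstA, are not analysed here.

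The arrays compared courtship-exposed males with unexposed males, 3 pools of each on 6 Affymetrix Drosophila version 1 arrays. All males were virgin Canton-S, a wild-type laboratory strain, were 4 days old, and were pooled whole in groups of about 12, so head, gut and reproductive tract are measured together. Each exposed male was given a virgin female, was watched for 5 min and was kept if he courted robustly without mating, while unexposed males were mock-aspirated and were not chosen by behaviour, so exposure and this choice cannot be told apart. Pools with the same replicate number were taken as pairs, since the groups were collected in parallel. In a whole-body pool, fewer cells of a type and less RNA per cell cannot be told apart either.

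Signals are linear intensities per probe set, as summarized by the authors, and their number of arrays limits the precision. Median signals of the 6 arrays were 107 to 133. The replicate 1 arrays of both treatments stood apart from the other 4. The ratio of 3′ to 5′ signal of the fly actin control, which grows as RNA or cDNA is shortened, was 17.8 for exposed 1 and 5.79 for unexposed 1, while the other 4 arrays had 2.19 to 2.36. Mouse, yeast and Bacillus control probe sets, the foreign controls, have no target in fly RNA. Their medians were 80.1 (exposed 1) and 81.0 (unexposed 1), while the other 4 arrays had 22.9 to 31.3. Whether RNA for any of these controls was added during labelling is not given in the sources used here. If it was, their medians and upper percentiles do not measure signal without a target. All 5 measured genes of the male germline list and all 5 of the accessory gland list passed the signal filter given below, which fits the labelled male bodies, but so did 4 of 5 egg shell and vitelline genes. The egg shell list summed to 4227 on exposed 1 and 4825 on unexposed 1, and to 1573 to 1822 on the other arrays. Its part in the results below was not tested.

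For all 8 genes the signal ranges of exposed and unexposed pools overlapped. Each group holds a replicate 1 array. Where those arrays stand apart, the overlap cannot tell whether a treatment effect smaller than that distance is present. The share of all probe sets with such overlap was not computed. Pdf encodes the peptide that clock neurons use to keep activity rhythms in step. Exposed pools 1, 2 and 3 gave signals of 1728, 426 and 390.4, and unexposed pools 1, 2 and 3 gave 2030.5, 425 and 348. Both replicate 1 arrays were far above the other 4, and the ranges of exposed and unexposed pools overlapped. The probe set stood at percentile 95.4 and 96.1 of all probe sets on the exposed and unexposed replicate 1 arrays and at 78.1 to 82.4 on the others.

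NPF, a relative of vertebrate neuropeptide Y that acts in feeding and reward, gave 84.5, 105 and 123 in the exposed replicates, numbered likewise, and 117, 125 and 106 in the unexposed replicates. These groups overlapped, and no replicate stood apart. The signals were above the median of the foreign controls on 6 of 6 arrays and above their 90th percentile on 4. The probe set for sNPF, which promotes feeding and growth, had signals of 92.8, 46.6 and 39.5 in exposed pools and 47.4, 45.7 and 32.8 in unexposed pools. Its highest value was that of exposed 1. It was above the control median on 5 arrays and above the 90th percentile on none, so it lay within the range of probe sets with no fly target.

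Dh31 and AstC are made in neurons and in gut endocrine cells, and Dh44 is made in neurons. For Dh31, the calcitonin-like hormone, the exposed replicates gave 84.9, 296 and 259.7, and the unexposed replicates gave 97.4, 299.9 and 269. For AstC, a somatostatin-like inhibitory peptide, they gave 92.0, 265 and 242 (exposed) and 64.7, 278 and 248 (unexposed). For both genes the replicate 1 arrays were the lowest, and there the foreign controls had medians of 80.1 and 81.0. The other 4 arrays lay close together, and within them the exposed and unexposed ranges overlapped. Dh44, the hormone related to vertebrate corticotropin-releasing factor, was listed at 0 on 5 of 6 arrays and had a signal of 37.2 on exposed 2. No ratio is given for it.

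FMRFa encodes peptides that strengthen neuromuscular signalling. The exposed replicates gave 190.1, 103 and 85.7, and the unexposed replicates gave 276, 100.4 and 97.9. As for Pdf, both replicate 1 arrays were the highest, but there the signals were below the 90th percentile of the foreign controls (430.3 and 446). Corazonin neurons of the male abdominal ganglion act in sperm transfer. Crz was listed at 0 on both replicate 1 arrays, and had 75.4 and 63.0 in exposed pools 2 and 3 and 76.8 and 70.6 in unexposed pools 2 and 3. Those 4 values were above the control medians and below the 90th percentiles.

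**Figure D1:**
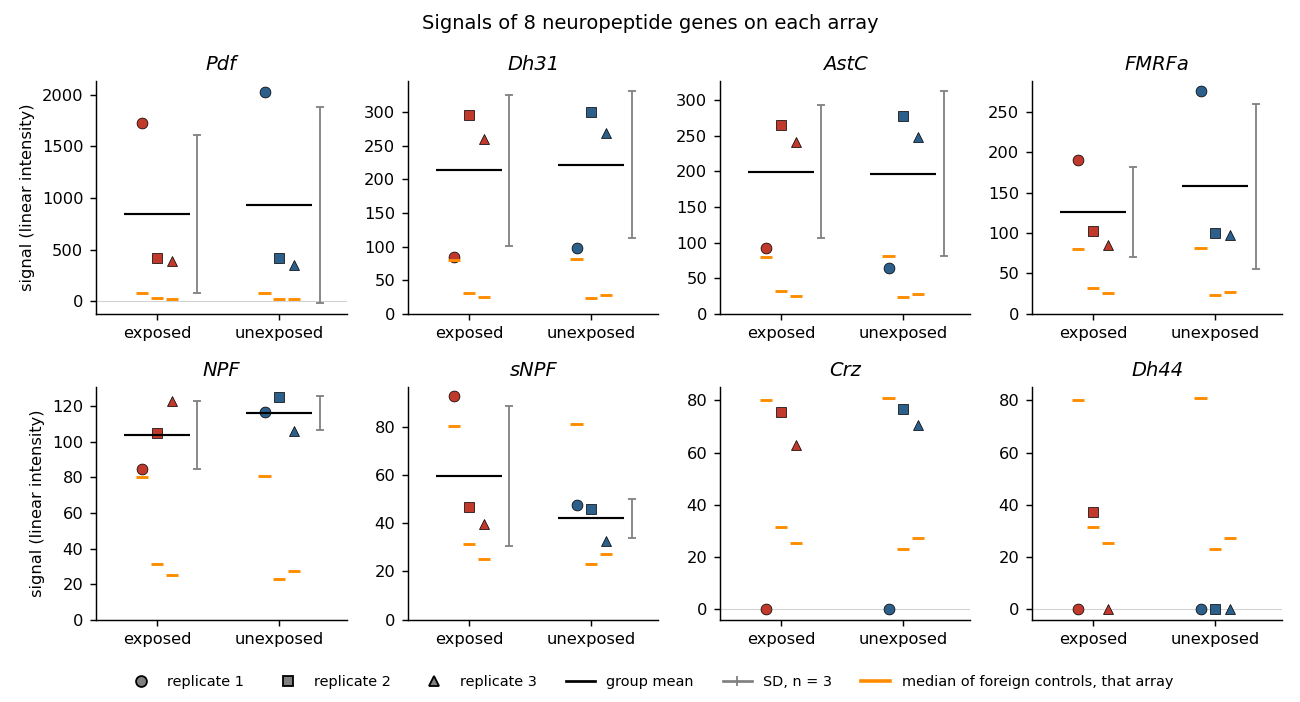
Signal (linear intensity) of 8 neuropeptide genes on each array, with exposed pools on the left and unexposed pools on the right of every panel. Symbols are replicates 1 to 3, black lines group means, grey bars the SD of 3 pools (not drawn for Crz and Dh44, which are listed at 0 on some arrays), and orange lines the median of foreign control probe sets on that array; the replicate 1 symbols lie apart in most panels, and the groups overlap in all 8.

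Courtship exposure was compared by limma on log2 signals with the replicate number as a block, over the 8251 probe sets that reached the study's minimum signal, 100, on 3 or more arrays. Of the 8 neuropeptide genes, 5 (Pdf, Dh31, AstC, FMRFa and NPF) passed this filter and 3 (sNPF, Crz and Dh44) did not. None of the 5 had an unadjusted p under 0.05, against 2.50% of all probe sets tested. None had an adjusted p under 0.05, against 0% of all probe sets. Their adjusted p ranged from 0.905 to 0.978. The median log2 fold change of the 5 was -0.09, and over all 8251 probe sets it was also -0.09. Exact permutation tests of single genes could not reach p < 0.05 with these arrays, since the smallest two-sided p is 0.10 for 3 against 3 pools and 0.25 for 3 pairs.

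The estimates of the 5 genes were small, with intervals that are wide for a single gene. For FMRFa the log2 fold change was -0.23 (standard error 0.16, 95% interval -0.65 to 0.19, adjusted p = 0.905 from limma), which became -0.079 without replicate 1 and -0.36 without replicate 2. NPF had -0.17 (standard error 0.18, interval -0.64 to 0.29) and averaged 104 ± 19.2 in exposed pools and 116 ± 9.51 in unexposed pools (SD, n = 3 each). Dh31 had -0.09 (standard error 0.12, interval -0.41 to 0.23) and averaged 213 ± 113 in exposed pools and 222 ± 109 in unexposed pools. NPF became -0.022 without replicate 1 and -0.36 without replicate 3, and Dh31 became -0.035 without replicate 1. All 3 intervals, fitted with the replicate block, hold 0, and a change of 2-fold in either direction lies outside them. The standard errors without the block were 0.55 for FMRFa, 0.28 for NPF and 0.67 for Dh31.

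The log2 fold change of Pdf was -0.02 (standard error 0.14, interval -0.39 to 0.35). Its group averages were 848 ± 762 in exposed pools and 934 ± 949.9 in unexposed pools (SD, n = 3 each), a spread set by replicate 1. For AstC the estimate was 0.13 (standard error 0.17, interval -0.32 to 0.58). For these genes, too, 2-fold changes lie outside the intervals fitted with the replicate block. Changes within the intervals could not be told from 0 with 3 pairs. Without the block the standard errors were 0.89 for Pdf and 0.72 for AstC. The direction of Pdf and AstC depends on replicate 1, without which they had 0.084 and -0.054. Quantile normalization and median centring also turn the sign of Pdf and of Dh31.

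Pair by pair (1, 2, 3), the log2 ratio of Dh31 was -0.20, -0.02 and -0.05, so that it was the member with a lower exposed pool in all 3, as were 18.4% of all probe sets tested. No member past the filter was higher in all 3 pairs, against 6.23% of all probe sets. NPF had ratios of -0.47, -0.25 and 0.21, and FMRFa had -0.54, 0.03 and -0.19. These pairs do not share a direction.

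AstC had ratios of 0.51, -0.07 and -0.04, and Pdf had -0.23, 0.003 and 0.16. For 5 of the 5 genes the ratio farthest from 0 was that of pair 1, as it was for 53.9% of all probe sets tested. Pair 1 is the pair with the raised 3′ to 5′ control ratios, which were higher on exposed 1 than on unexposed 1 (5.80 and 1.93 for the fly GAPDH control, 1.30 to 1.52 on the other arrays). Their part in the pair 1 ratios was not tested.

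Below the filter, sNPF had ratios of 0.97, 0.03 and 0.27, all above 0. The ratio of pair 1 sets 92.8 against 47.4, on arrays where foreign controls had medians of 80.1 and 81.0. Fitted by limma without the filter, it had a log2 fold change of 0.42 with an adjusted p of 0.92 and a standard error of 0.23, and 0.15 without replicate 1. Crz had ratios of -0.03 and -0.16 in pairs 2 and 3, and its pair 1 ratio is between signals both listed at 0.

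**Figure D2:**
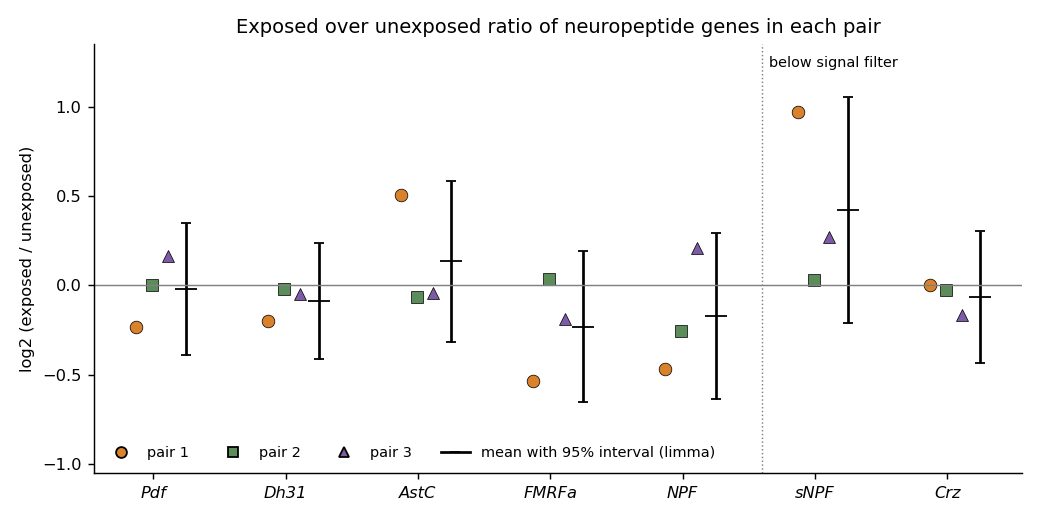
Log2 ratio of the exposed over the unexposed pool (vertical axis) for 7 neuropeptide genes in pairs 1 to 3 (coloured symbols), with the limma mean and its 95% interval (black); sNPF and Crz are from the fit without the signal filter, and the pair 1 ratio of Crz is between signals listed at 0. All 7 intervals cross 0, and the pair 1 symbol is the farthest from 0 for Pdf, Dh31, AstC, FMRFa, NPF and sNPF.

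For Pdf, FMRFa, Dh31 and AstC, the replicate 1 arrays differed from the other 4 far more than the treatments differed. Set against the mean log2 signal of the replicate 2 and 3 arrays, the replicate 1 arrays were 4.73-fold higher for Pdf and 2.37-fold higher for FMRFa. For Dh31 they were 3.09-fold lower and for AstC 3.34-fold lower as measured, and for NPF they were 1.15-fold lower. On the replicate 1 arrays Dh31, AstC, FMRFa and NPF were all below the 90th percentile of the foreign controls, so the sizes of their folds are uncertain, and those of Dh31 and AstC may be too small. As measured, 4 of the 5 genes past the filter differed by over 2-fold, as did 55.1% of all probe sets tested. Both replicate 1 arrays lay above the other 4 for 2 of the 5 genes, against 28.0% of all probe sets, and below them for 2, against 57.2%. With 5 genes these shares are not set apart from the background. What sets the arrays of replicate 1 apart in the labels is their replicate number. They also share the raised 3′ to 5′ actin ratios, foreign control medians and egg shell sums given above. Labelling and hybridization took place at either of the study's core facilities, and which arrays went where is not given in the sources used here.

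Away from replicate 1 the signals of these genes repeated closely. Over the 4 arrays of replicates 2 and 3, both treatments together, the coefficient of variation was 6.32% for AstC, 7.05% for Dh31, 7.82% for FMRFa, 9.18% for Pdf and 9.31% for NPF. Over all probe sets tested the median was 9.44% (quartiles 6.20% and 13.7%). Crz, although below the filter, had 8.72%.

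Neuron markers, counting those below the signal filter, did not all move one way with replicate 1. Of 7 markers 6 were measured, with a summed signal of 394 to 544 on exposed arrays and 501 to 612 on unexposed arrays. On the replicate 1 arrays the sum was 394 and 501, and on the others 538 to 612. For 3 of the 6 (elav, nSyb and brp) both replicate 1 arrays were below the other 4, for 1 (para) they were above, and for Syn and Appl they overlapped. Only nSyb, brp and Appl passed the signal filter. Of these 3, 2 were below and 0 above, against 57.2% and 28.0% of all probe sets tested. The synaptic vesicle gene nSyb had 30.2 (exposed 1) and 78.2 (unexposed 1), while the other 4 arrays had 188 to 233, and elav, the pan-neuronal RNA-binding protein, was at 0 on exposed 1 and at 37.8 or less on every array. The sodium channel gene para, in contrast, had 188 on both replicate 1 arrays and 60.3 to 71.7 on the others. The replicate 1 signals of nSyb and para were all below the 90th percentile of the foreign controls there (430.3 and 446). The active zone gene brp is given by its brightest probe set, and a second one was higher on replicate 1 (224 on exposed 1 and 179 on unexposed 1, and at most 20.3 on the others). Gut and enteroendocrine markers, 5 of 6 measured, summed to 21921 to 28310 on exposed arrays and 25493 to 30760 on unexposed arrays. On the replicate 1 arrays this sum was 21921 and 25493, and on the others 26483 to 30760. Of these markers pros had only 24.6 to 180, so the sum is set by the other genes of the list. The part of either list in the peptide signals was not tested.

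**Figure D3:**
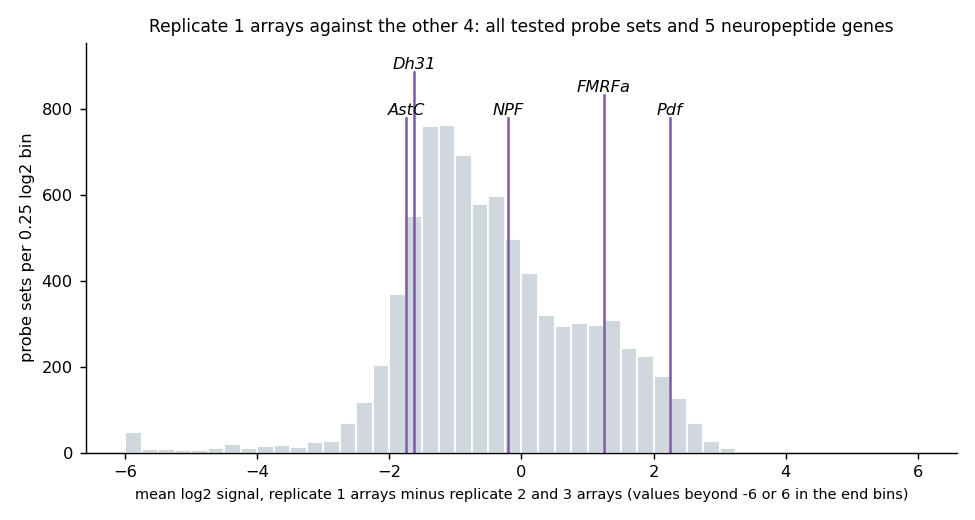
Number of tested probe sets (vertical axis, grey bars) by the difference in mean log2 signal between the replicate 1 arrays and the replicate 2 and 3 arrays (horizontal axis, both treatments together). Purple lines mark the 5 neuropeptide genes past the signal filter; Pdf and FMRFa lie on the right, AstC and Dh31 on the left, and NPF near 0.

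Likeness to other genes mostly followed the same division. Over the 6 arrays, the log2 signals of Pdf were most like those of scaf and TH1 (Pearson r of 0.9998 and 0.9997), and 278 of 7348 probe sets with 1 gene had an r over 0.99 with it. For Dh31 the nearest were bigmax and alc (0.9998 and 0.9997, with 519 over 0.99), for AstC CG10903 and Ass (0.9989 and 0.9985, with 97), and for FMRFa Prosbeta2R1 and CG9876 (0.9989 and 0.9985, with 87). NPF, with the smallest replicate 1 difference of the 5, was nearest to Vha68-3 and CG13978 (0.9951 and 0.9884), and 1 probe set passed 0.99. These correlations share the 6 arrays and, for 4 of the 5 genes, rest on the distance of replicate 1, so they are given as a description.

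Receptors carry the peptides' signals into target cells. Of 14 receptor genes of these peptides 9 have a probe set, and 4 passed the filter. None of the 4 had an unadjusted p under 0.05, against 2.50% of all probe sets tested. Their median log2 fold change was -0.27, against -0.09 over all probe sets. Dh44-R2, a receptor for Dh44, had the lowest value, -0.37 (standard error 0.29). The exposed replicates gave 77.0, 208 and 170.3 and the unexposed replicates 167, 179 and 196, so the lowest is exposed 1. The groups overlapped.

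TkR99D, a tachykinin receptor, had signals of 159, 121 and 99.2 in exposed pools and 271, 107 and 136 in unexposed pools, and a log2 fold change of -0.35 (standard error 0.22). The highest was unexposed 1. Without replicate 2 its value was -0.61 with an unadjusted p just under 0.05 (adjusted p = 0.999 from limma), the call that this omission adds. The receptor for short neuropeptide F, sNPF-R, was lower in 3 of 3 pairs by its brighter probe set, with -0.34, -0.04 and -0.19, as were 18.4% of all probe sets. Its other probe set, below the filter, was higher in the exposed pool of pair 2 (84.8, against 78.3 in the unexposed pool). AstC-R1 had a mean log2 ratio of -0.06.

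The other 5 receptors with a probe set were below the filter. NPFR, the receptor for NPF, had signals of 7.03 to 17.1 in exposed pools and 5.07 to 14.7 in unexposed pools, under the foreign control median of every array. Pdfr, the receptor through which Pdf acts on other clock cells, had 64.7, 56.5 and 45.5 in exposed pools and 91.9, 60.9 and 52.3 in unexposed pools. It was lower in 3 of 3 pairs, with overlapping groups. TkR86C, another tachykinin receptor, had 66.8, 19.8 and 13.2 in exposed pools and 67.0, 32.4 and 23.2 in unexposed pools, with pair ratios of -0.002, -0.71 and -0.81. Those signals, too, were under the control medians on 5 of the 6 arrays. The remaining receptors with a probe set were Dh44-R1 and Dh31-R, while CrzR, both AstA receptors, AstC-R2 and FMRFaR are not analysed here.

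Peptide precursors are cut by proprotein convertases, trimmed by carboxypeptidases and amidated by Phm and then by Pal1 or Pal2, while neprilysins degrade peptides outside the cell. Of 14 genes on that list 12 have a probe set and 7 passed the filter by their brightest probe set. Nep1 did not, but another of its probe sets passed. It had 143, 88.6 and 113 in exposed pools and 245, 117 and 107 in unexposed pools, and is left out of what follows. None of the 7 had an unadjusted p under 0.05, against 2.50% of all probe sets tested. The 7 log2 fold changes lay between -0.28 and 0.06, with a median of -0.06. For Phm the exposed replicates gave 1697, 1802 and 1838 and the unexposed replicates 1855, 1938 and 1757. Its log2 fold change of -0.06 had a standard error of 0.12. It differed little on any array.

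The amidating lyase genes divided by replicate like the peptides. Pal1 had 40.4, 265 and 240.3 in exposed pools and 48.7, 260.1 and 231 in unexposed pools. Pal2 had 753, 473 and 410.1 in exposed pools and 807, 407 and 389 in unexposed pools. Replicate 1 was thus lowest for Pal1 and highest for Pal2, and exposed and unexposed pools overlapped for both. For Nep4, a neprilysin, the log2 fold change was -0.11 (standard error 0.14).

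A further 29 neuropeptide and peptide hormone genes outside the insulin and adipokinetic families were examined, of which 22 have a probe set and 12 passed the filter. At an unadjusted p under 0.05, 0 were higher and 1 was lower, against 2.50% of all probe sets in both directions together, and none passed after adjustment. The gene was Nplp4, a neuropeptide-like precursor, for which the exposed replicates gave 3653, 817 and 722 and the unexposed replicates 4766, 972 and 998. It was lower in 3 of 3 pairs, although the groups overlap because of replicate 1. The fold change was -0.37 on the log2 scale (standard error 0.12, unadjusted p = 0.0355 and adjusted p = 0.905 from limma). The call was lost with no replicate block, with no signal filter, with quantile normalization, with median centring, with Cyber-T and when any 1 of the 3 replicates was left out.

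Nplp3 ran the other way. The exposed replicates gave 3081, 3041 and 3061, and the unexposed replicates 2870.1, 2412 and 2142, so every exposed pool was above every unexposed pool. How many of all probe sets tested separate in this way was not computed, so this separation has no background to be judged by. The log2 fold change was 0.32 (standard error 0.14, unadjusted p = 0.0795 and adjusted p = 0.905 from limma). Of the 12 genes, 1 was higher and 5 (CNMa, Lk, Ms, Nplp1 and Nplp4) were lower in all 3 pairs, against 6.23% and 18.4% of all probe sets. For Nplp2 the log2 fold change was 0.01 (standard error 0.14).

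CCHa2, a peptide of gut and fat body that stimulates insulin release, gave 333, 1553 and 1905 in the exposed replicates and 763, 1199.9 and 1655 in the unexposed replicates. The exposed pool was the lower in pair 1 and the higher in pairs 2 and 3, with a mean log2 ratio of -0.21 (standard error 0.35). The list's median log2 fold change was -0.17, against -0.09 over all probe sets.

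**Figure D4:**
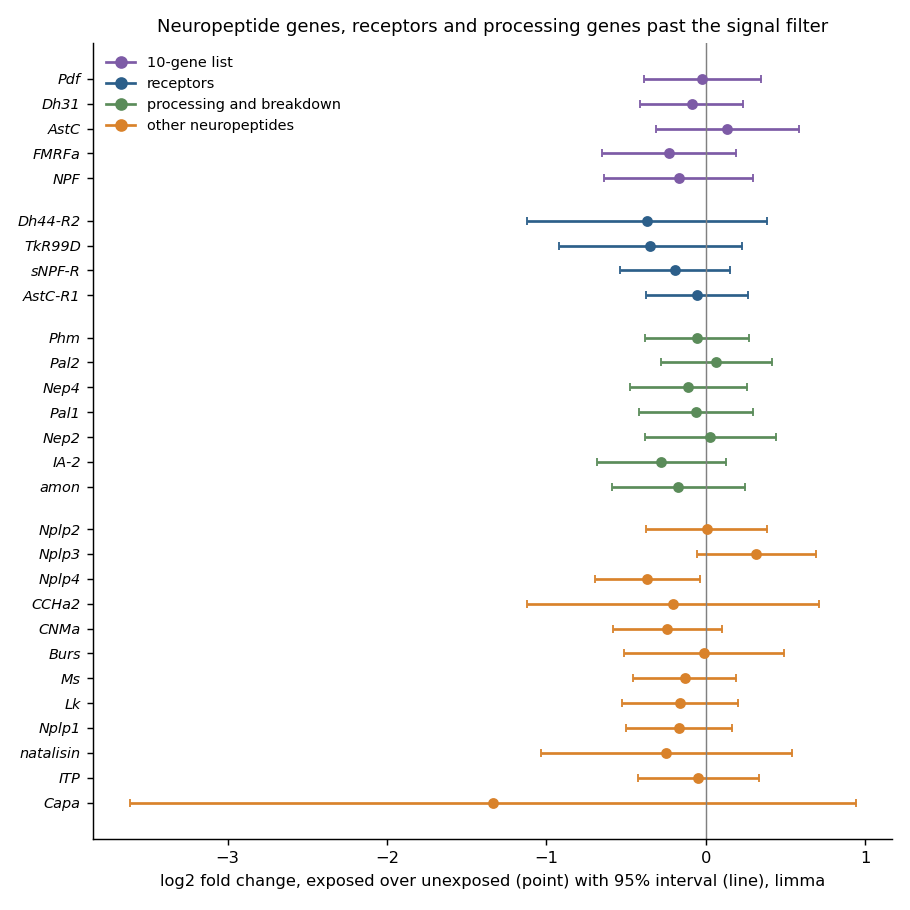
Log2 fold change of exposed over unexposed males (horizontal axis, points) with 95% intervals from limma (lines). All genes shown passed the signal filter by their brightest probe set. They are 5 of the 10-gene list, 4 receptors, 7 processing and breakdown genes and 12 other neuropeptide genes. The interval of Nplp4 lies below 0 and those of the other 27 genes hold 0; that of Capa is the widest.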

How the data were processed

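RNA from 6 pools was hybridized to 1-colour Affymetrix arrays. The authors deposited a linear signal intensity per probe set and array; the submitters' processing notes name GCOS 1.2, the methods also name dChip summaries, and which of them the table holds is not given in the sources used here. Of 14010 rows, 44 are control probe sets and were not tested, and 12444 are paired with 1 gene by the platform annotation, renamed through RefSeq Release 6. Signals under 1 were set to 1 before log2. The comparison used limma 3.58.1 in R 4.3.3 (lmFit, eBayes), blocked on replicate number, after the study's filter, and Benjamini-Hochberg adjustment over all probe sets tested. The code was tested on simulated arrays. The pairing comes from the methods. Same-numbered arrays deviated together from the group means (r = 0.84, 0.76 and 0.78). Exposed 2 with unexposed 3 (r = 0.81) and exposed 3 with unexposed 2 (r = 0.81) did so more than the same-numbered arrays of replicates 2 and 3. Differences between replicates 2 and 3 correlated at -0.33 between treatments, so for those replicates the signals do not show the pairing. Whether pools are separate rearings is not stated, so p-values measure the spread between these pools.

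The named genes are the 10 members, genes of the other lists with an unadjusted p under 0.05 or the highest mean signals (up to 4 a list), and the 2 most correlated genes of each member. Genes with several probe sets are given by the brightest. Capa, CNMa, Lk, Ms, Nplp1, natalisin, Nep1, the receptors below the filter, elav, nSyb, brp, para, Syn, Appl and pros were named beyond this rule after their values were seen. Members, lists and tests were chosen with earlier results of these data known. No sequences or coordinates were used.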

Additional observations from a re-analysis of the deposited data

How the results depend on the processing

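None of the 5 neuropeptide genes had an unadjusted p under 0.05 in the fit as reported or under any of the 11 alternatives, the last of which, with the replicate 1 arrays as a batch, was chosen after seeing the data. The smallest adjusted p of any member over the alternatives was 0.705 (NPF). Of 75 alternative values of member fold changes, 67 kept their direction and 8 turned it. The fits without the block, without the filter, with Cyber-T or with replicate 1 as a batch leave each fold change as reported. Those settings could not turn a direction, so the count of 67 is no measure of stability. AstC became -0.054 without replicate 1 (-0.054 to 0.23 when each replicate was left out), and Pdf became 0.084 without replicate 1 (-0.11 to 0.084), 0.012 with quantile normalization and 0.085 with median centring. With quantile normalization and median centring Dh31 became 0.021 and 0.017, and Crz became 0.20 and 0.043. Crz was listed at 0 on both replicate 1 arrays, and these steps give those zeros unequal values. Its turn of direction is therefore not a measured change. Median centring moved the median log2 fold change of all probe sets tested by 0.11. Relative to that median, Pdf had 0.06, Dh31 -0.004, AstC 0.22, FMRFa -0.15 and NPF -0.09 as reported.

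At an unadjusted p under 0.05, the 206 probe sets called (31 higher and 175 lower) became 10 with no replicate block, 373 with no signal filter, 318 with Cyber-T, the paired test of the methods, on log2 signals and 467 with replicate 1 as a batch. Leaving out each replicate gave 121 to 301. The split was 146 higher and 120 lower with quantile normalization and 127 higher and 102 lower with median centring. Without the pairing, 0 of the other neuropeptide genes was called, and the count of 1 became 0 with no signal filter, 2 (Nplp3 and Nplp4) with replicate 1 as a batch, and 0 to 1 when a replicate was left out. The gene called without replicate 1, with quantile normalization, with median centring and with Cyber-T was Nplp3, not Nplp4. The count of receptors was 0 to 1 when a replicate was left out, the 1 being TkR99D without replicate 2. The pairing changed no other call in these lists. The causes were not tested. Foreign control medians of 80.1 and 81.0 may limit what the replicate 1 arrays can show for NPF, sNPF, Dh31, AstC and Crz. Whether RNA for those controls was added is not known.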

Other observations

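Capa, which encodes peptides that act on the kidney-like Malpighian tubules, had the log2 fold change farthest from 0 among the listed neuropeptide, receptor and processing genes past the signal filter, -1.34 with a standard error of 0.86. Its log2 ratios were -3.94, 0.07 and -0.14 in pairs 1 to 3. It was chosen after its values were seen, and both of its replicate 1 signals lay below the foreign control medians of those arrays.

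The 2 probe sets of natalisin, a tachykinin-related peptide gene, both stood highest on the replicate 1 arrays but ordered the treatments there in opposite ways, with 235 on exposed 1 against 498 on unexposed 1 for the brighter and 285 against 190.1 for the other.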
